A study of Homo sapiens with 12 samples.

Results

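Interferon-stimulated genes are the genes that cells switch on after interferon binds its receptors, and 43 of them were followed here by gene symbol in RNA sequencing counts. All 43 were found among the 57187 genes of the count table, and 40 of them were among the 17211 genes with enough counts to test. *RSAD2*, *CXCL10* and *CXCL11* were not. The 12 libraries came from 4 human cancer cell lines, the breast cancer lines MDA-MB-231 and HCC1954 and the ovarian cancer lines OVCAR8 and SKOV3, with 1 library per condition in each line. EV stands for the control cells, *SIVA-WT* for cells stably transfected with a vector for wild type SIVA, and *SIVA-D160N* for cells transfected with SIVA that carries the D160N change. SIVA is a protein first described for its part in cell death downstream of CD27. The transfectants were pools selected with hygromycin after transfection of a linearized vector, so the libraries are not of single clones. The labels call the controls parental and untreated, while the study also names them EV, and if they were untransfected, SIVA cannot be told apart from transfection and selection. The 3 values given for a line stand in the order EV, *SIVA-WT*, *SIVA-D160N*. They are CPM, the counts of a gene relative to the total of its library, scaled by TMM, a method that sets libraries on a common scale.

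Type I interferons (alpha, beta) signal through *IFNAR1* and *IFNAR2* and type III interferons (lambda) through *IFNLR1* and *IL10RB*. The kinases *JAK1* and *TYK2* then activate *STAT2*, which joins *IRF9* in the complex ISGF3. ISGF3 binds the interferon-stimulated response element (ISRE), a repeat of GAAA-like letters in front of these genes. Their products block virus entry, destroy or hold back viral RNA, tag proteins with *ISG15*, sense RNA in the cytoplasm, or feed back on the pathway itself. Many tumor cell lines keep some of these genes on without added interferon.

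Promoters of the members were read from RefSeq (GRCh38.p14), from 250 bases before the start of transcription to 50 after it. Of the 43 members, 34 had at least 1 such promoter, 44 promoters in all, and the remaining 9 had none in the table. The repeat GAAANNGAAA, on either strand, was found in 23 of the 34 members (67.6%, exact 95% interval 49.5% to 82.6%), and in 4.07% of the 10885 tested genes with a promoter. The letters TTCNNNGAA, the core bound by STAT dimers, were found in 11 of the 34 (32.4%) and in 8.71% of the tested genes with a promoter. The stretches just before the start are shown for 6 members that the results below turn on, 5′ to 3′ along the gene's own strand, with matches to GAAANNGAAA in capitals.
IFI6, chr1:27672193-27672352, minus strand: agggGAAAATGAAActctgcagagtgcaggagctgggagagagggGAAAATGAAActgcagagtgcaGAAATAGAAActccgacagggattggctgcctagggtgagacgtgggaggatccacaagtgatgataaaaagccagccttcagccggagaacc
ISG15, chr1:1013377-1013496, plus strand: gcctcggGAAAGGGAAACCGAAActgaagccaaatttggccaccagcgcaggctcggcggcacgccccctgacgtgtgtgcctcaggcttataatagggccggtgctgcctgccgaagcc
IFI44L, chr1:78620278-78620447, plus strand: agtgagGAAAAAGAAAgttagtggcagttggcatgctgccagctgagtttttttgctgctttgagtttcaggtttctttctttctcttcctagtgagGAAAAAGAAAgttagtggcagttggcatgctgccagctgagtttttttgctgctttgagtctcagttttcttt
IFITM1, chr11:313980-314039, plus strand: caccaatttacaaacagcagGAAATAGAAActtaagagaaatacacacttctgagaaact
SAMD9, chr7:93117980-93118119, minus strand: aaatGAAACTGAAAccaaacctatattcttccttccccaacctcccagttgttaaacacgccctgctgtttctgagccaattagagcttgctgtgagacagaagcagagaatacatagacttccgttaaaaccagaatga
OAS1, chr12:112906792-112906961, plus strand: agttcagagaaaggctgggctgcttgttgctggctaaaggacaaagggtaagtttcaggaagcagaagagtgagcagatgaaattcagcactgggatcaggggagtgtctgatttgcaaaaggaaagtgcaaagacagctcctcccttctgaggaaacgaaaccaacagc
*IFI6* held 3 matches, *ISG15* 2 that overlap, *IFI44L* 2, and *IFITM1* and *SAMD9* 1 each within the letters shown. *OAS1* held no match in its window, which says only that these letters were absent from it. Near the end of its printed stretch, the letters ggaaacgaaa miss GAAANNGAAA only at the second base.

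Total counts ran from 35791455 to 45890398 per library, so a gene without counts was limited to between 0.0664 and 0.0856 CPM (3 counts, counting error only). Libraries of one line had a Pearson correlation of at least 0.983 across genes, libraries of different lines at most 0.841, and none of the 66 pairs of libraries was identical. *SIVA1* was at 28.1, 80.7 and 68.2 CPM in MDA-MB-231, 0, 38.2 and 26.5 in HCC1954, 66.3, 177 and 161 in OVCAR8 and 52.6, 106 and 112 in SKOV3. The library labelled HCC1954 EV held 0 *SIVA1* counts, which allows up to 0.0720 CPM, while the 3 other EV libraries held between 28.1 and 66.3 CPM. The study's blots also list HCC1954 cells named SIVA knockout, a name it used in MDA-MB-231 for a stable knockdown by shRNA. The label of this library is parental. Counts over the members, the interaction of tissue and condition, and the fits of the genes with the largest differences are therefore also given without HCC1954, and values of a single line can be read apart from it. The HER2 gene *ERBB2*, amplified in HCC1954 and SKOV3, was between 5736 and 9223 CPM in HCC1954 and between 5964 and 12170.4 in SKOV3, and at most 78.1 in the others. *PAX8*, a marker of Müllerian epithelium, was at 61.1 CPM or more in OVCAR8 and SKOV3 and at most 3.43 in the breast lines. *WT1*, from the same list, did not separate the tissues, with 8.06, 5.55 and 6.34 CPM in HCC1954 and 0.397, 0.672 and 1.11 in SKOV3, and *EMX2* was below 1 CPM throughout. The epithelial cadherin *CDH1* was near 0 in MDA-MB-231, OVCAR8 and SKOV3 (at most 0.493 CPM). The breast markers did not separate the tissues. *GATA3* was at 49.7, 42.8 and 47.4 CPM in HCC1954, but at most 2.86 in MDA-MB-231, below the 5.92, 6.28 and 5.68 of OVCAR8. *ESR1* was at 12.3, 11.4 and 7.39 in HCC1954, at most 0.0243 in MDA-MB-231 and at 2.41, 1.01 and 0.739 in SKOV3. *TFAP2B* was at most 0.120 CPM in any library. Of the leukocyte markers, *CLEC4C* was at 0 in all libraries and *PTPRC*, *CD3E* and *CD14* reached at most 0.627 CPM, while *NCAM1* reached 10.7 in HCC1954 and *ITGAM* 1.84 in OVCAR8.

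These genes differed in level between the cell lines. Summed over the 43 members, the level was 462, 469 and 441 CPM in MDA-MB-231, 2785, 2025 and 1598 in HCC1954, 791, 761 and 723 in OVCAR8 and 977, 926 and 777 in SKOV3. In bulk RNA, fewer cells that express a gene and less RNA per cell cannot be told apart. HCC1954 was the highest line in every condition, and its 3 libraries lay above the other 9 for 19 of the 40 members tested, against 16% of all genes tested. For OVCAR8 the same was true of 3 members (14.3% of all genes), for MDA-MB-231 of 2 (12.8%) and for SKOV3 of 2 (15.5%). In the test of each line against the mean of the 3 others (edgeR, called at a log2 fold change of 1.5 or more in size with a Benjamini-Hochberg FDR below 0.05), 26 of the 40 members were called higher in HCC1954, against 14.7% of all genes, and 0 lower, against 11%. At an unadjusted p under 0.05 by edgeR, whatever the fold change, 2 members were lower in HCC1954, and by DESeq2 and limma-voom 0 and 0 were called lower. The matching shares of all genes were not counted, and the 11% belongs to the edgeR call only. MDA-MB-231 had 3 members higher (10.5% of all genes) and 14 lower (12.1%), OVCAR8 3 higher (13.7%) and 15 lower (9.03%), and SKOV3 8 higher (13.5%) and 8 lower (9.85%). Among the calls, the log2 fold change was 6.69 ± 0.24 (SE), FDR = 8.14e-10 for *IFI27* and 5.60 ± 0.37 (SE), FDR = 1.34e-07 for *IFI44L* in HCC1954, 9.65 ± 0.30 (SE), FDR = 5.25e-10 for *MX2* in OVCAR8, 3.03 ± 0.24 (SE), FDR = 6.94e-07 for *ISG20* in MDA-MB-231 and 2.35 ± 0.13 (SE), FDR = 3.00e-08 for *HERC5* in SKOV3. The median log2 fold change of the members was 2.80 for HCC1954, -1.37 for MDA-MB-231, -1.31 for OVCAR8 and 0.02 for SKOV3, beside 0.02, 0.00, 0.03 and 0.06 over all genes tested. Without the library labelled HCC1954 EV, 25 members were called higher in HCC1954. The breast lines HCC1954 and MDA-MB-231 stood at opposite ends of the summed level. The 3 libraries of a line differ in condition, so these tests treat condition as a term of the fit and measure the spread between libraries, not between cultures of one condition.

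**Figure D1:**
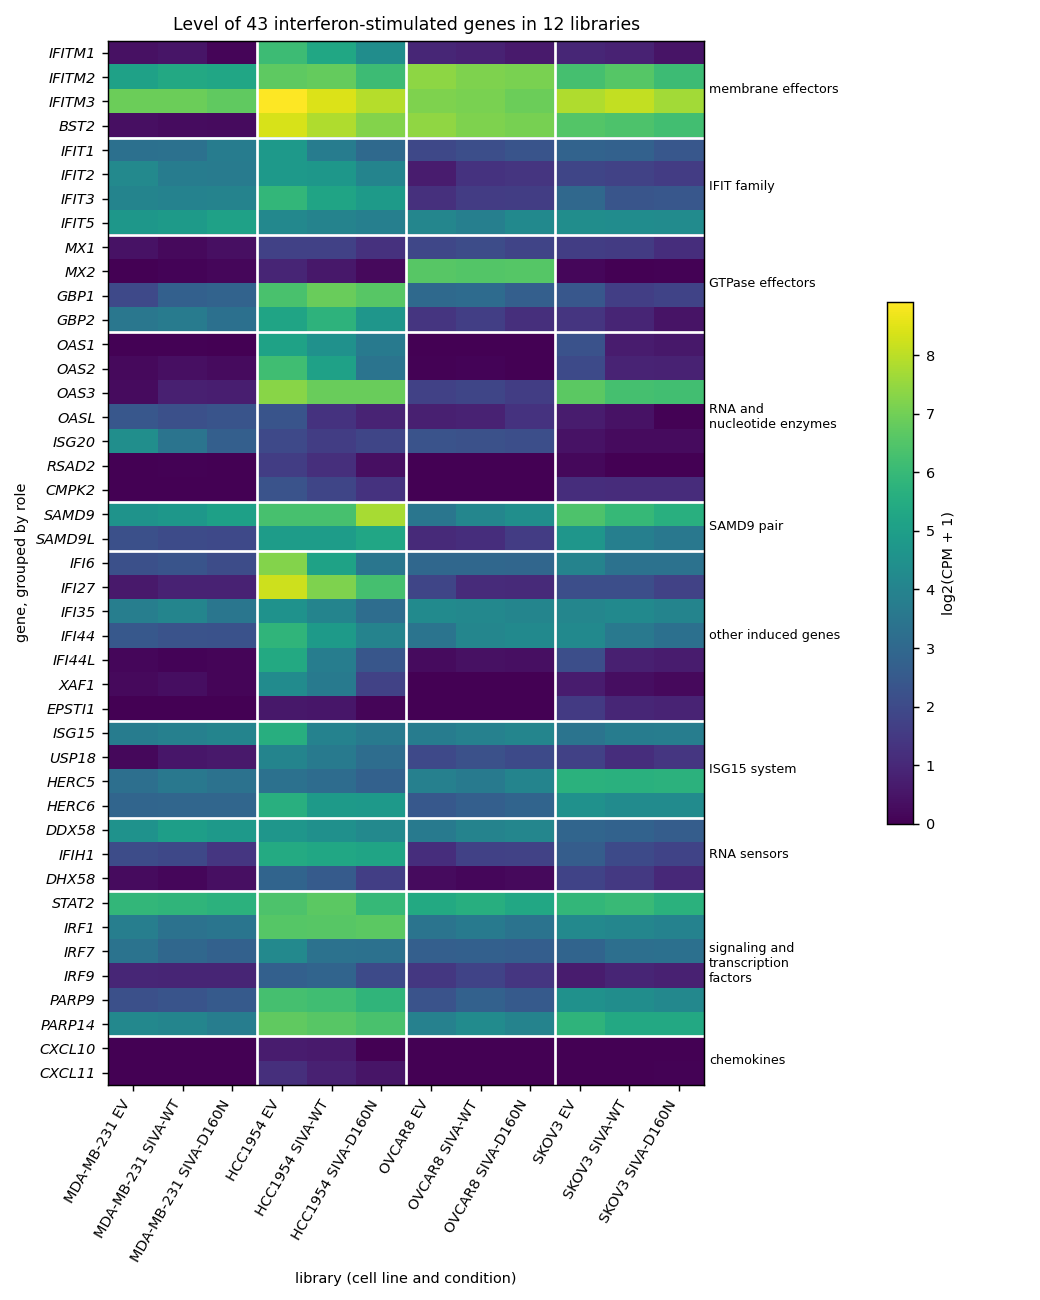
Level of the 43 members in the 12 libraries, as log2(CPM + 1), with genes in rows grouped by role and libraries in columns grouped by line. The 3 HCC1954 columns are the brightest for 19 of the 40 members tested, MX2 is bright only in OVCAR8, and the chemokine rows are dark throughout.

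No member was called between conditions by the main test (edgeR), and other tools called some. Fitted over the 4 lines, the log2 fold change of *SIVA-D160N* vs EV was below 0 for 37 of the 40 members, with a median of -0.39 beside -0.01 over all genes tested. None of the 40 was called by edgeR at the same limits, against 0.00581% of all genes. At an unadjusted p under 0.05, 16 were lower, against 7.68% of all genes, and 0 higher, against 6.52%. DESeq2 called 2 members (*OAS1* and *XAF1*) and limma-voom 5 (the same 2 and *IFITM1*, *OAS2* and *IFI44L*), all lower, of 12 and 27 genes called in all. edgeR without the filter on low counts called *OAS1*, *OAS2*, *RSAD2*, *IFI44L* and *XAF1*, also lower, of 172 genes called in all. In *SIVA-WT* vs EV, 0 members were called by edgeR (0% of all genes), DESeq2 or limma-voom, 4 were lower at an unadjusted p under 0.05 (1.07% of all genes) and 0 higher (1.47%), and the median was -0.25 beside -0.01. In *SIVA-D160N* vs *SIVA-WT*, 0 were called by any of the 3 tools (0% of all genes by edgeR), 8 were lower (4.3%) and 0 higher (2.58%), and the median was -0.23 beside 0.00. The 3 comparisons share libraries, so their values are not independent of each other. Leaving out HCC1954 left 7 members lower (*IFITM1*, *BST2*, *GBP2*, *OAS1*, *OAS2*, *ISG20* and *IFI44L*) and 1 higher (*ISG15*) at an unadjusted p under 0.05 in *SIVA-D160N* vs EV, of 39 tested, against 5.73% and 3.93% of all genes, with a median of -0.16. It left 2 lower in *SIVA-WT* vs EV (1.26% of all genes, median -0.04) and 3 in *SIVA-D160N* vs *SIVA-WT* (1.52%, median -0.11). Leaving out only the library labelled HCC1954 EV left 9 lower (6.41%), with a median of -0.24. In *SIVA-WT* vs EV the median without that library was -0.01, and 2 members were lower (1.57%). *IFITM1*, *IFITM3*, *BST2*, *MX1*, *GBP2*, *ISG20*, *IFI6*, *IFI35* and *STAT2* were lower in *SIVA-D160N* than in EV in each of the 4 lines, 9 of the 40 against 8.34% of all genes, and 0 members were higher in each line, against 6.85%. Over the 3 lines other than HCC1954, 10 members were lower in each, against 12.6% of all genes, and 2 (*HERC5* and *ISG15*) higher, against 9.70%. For *SIVA-WT* vs EV, *BST2*, *ISG20* and *DHX58* were lower in each line, against 4.77% of all genes, and 0 were higher, against 4.57%.

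**Figure D2:**
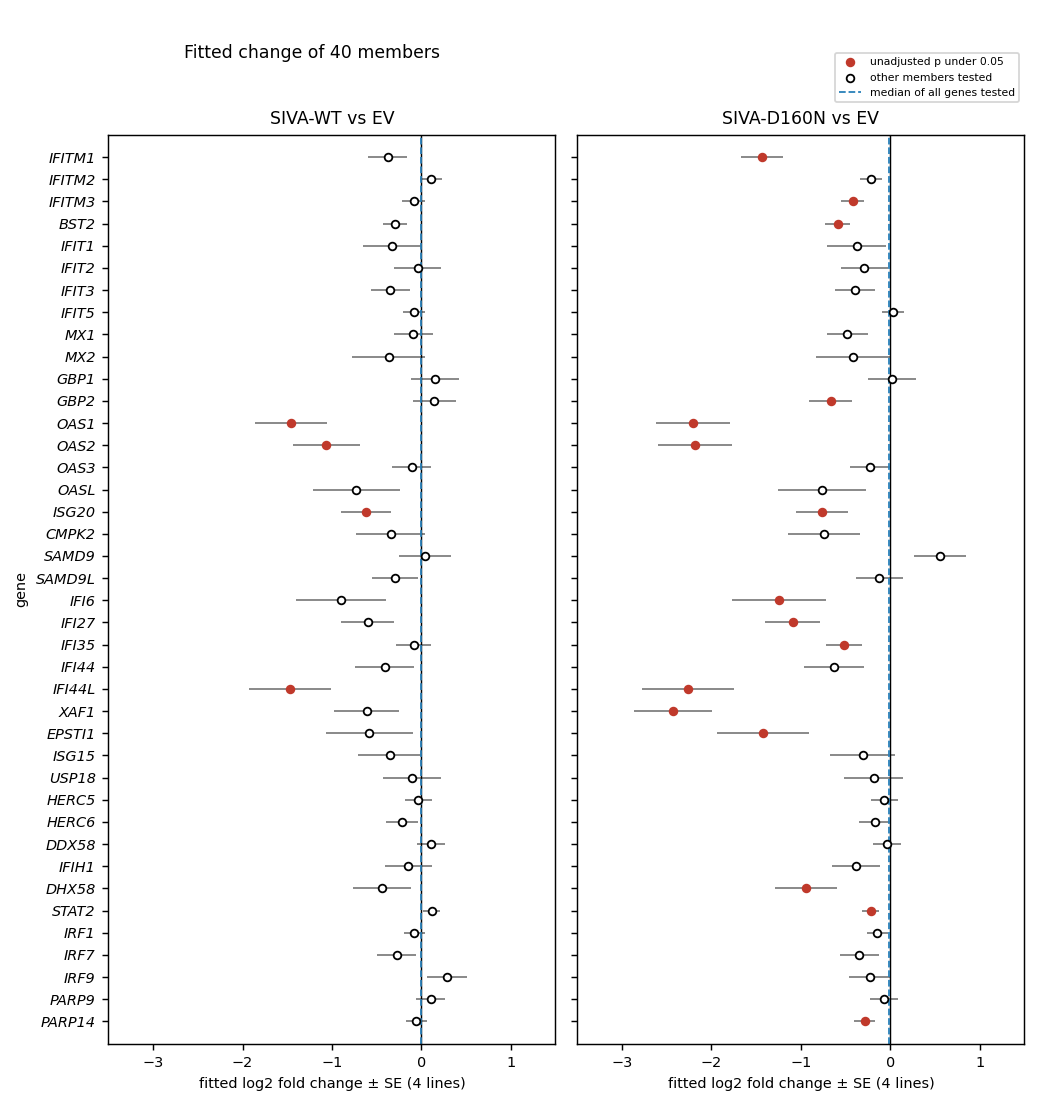
Fitted log2 fold change (x axis) of the 40 members tested (y axis), with its SE over the 4 lines, for SIVA-WT vs EV on the left and SIVA-D160N vs EV on the right; red points have an unadjusted p under 0.05 and the dashed line is the median of all genes tested. In SIVA-D160N vs EV 37 points lie left of 0, and SAMD9 is the farthest to the right.

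The membrane effectors hold viruses at the cell border: IFITM proteins block fusion in the entry route and *BST2* (tetherin) holds budding particles. *IFITM1* was at 0.310, 0.430 and 0.0972 CPM in MDA-MB-231, 67.4, 38.8 and 19.5 in HCC1954, 0.932, 0.788 and 0.549 in OVCAR8 and 0.954, 0.807 and 0.369 in SKOV3. It was lower in *SIVA-D160N* than in EV in all 4 lines but stood under 1 CPM outside HCC1954, and the fitted log2 fold change was -1.44 ± 0.23 (SE), FDR = 0.128. Without HCC1954 it was -1.14 ± 0.35 (SE), FDR = 0.410, and against *SIVA-WT* over the 4 lines it was -1.06 ± 0.24 (SE), FDR = 0.719. *IFITM3*, the best known inhibitor of influenza entry in this family, was at 119, 120.3 and 106 CPM in MDA-MB-231, 480.1, 348 and 242 in HCC1954, 145, 138 and 118 in OVCAR8 and 231.5, 269 and 201 in SKOV3. It was lower in *SIVA-D160N* than in EV in each line, most in HCC1954, with a fitted log2 fold change of -0.42 ± 0.13 (SE), FDR = 0.220, and -0.22 ± 0.10 (SE), FDR = 0.520 without HCC1954. *BST2* was at 0.288, 0.227 and 0.194 CPM in MDA-MB-231, 329, 229.5 and 151 in HCC1954, 169.8, 144 and 134 in OVCAR8 and 90.8, 85.6 and 73.5 in SKOV3. MDA-MB-231 was nearly without *BST2* transcripts, and all 4 lines stood in the order EV, *SIVA-WT*, *SIVA-D160N* from high to low, with -0.59 ± 0.14 (SE), FDR = 0.154 for *SIVA-D160N* vs EV, and -0.34 ± 0.11 (SE), FDR = 0.420 without HCC1954. *IFITM2* did not pass in that comparison (-0.22 ± 0.13 (SE), FDR = 0.461). *IFITM1*, *IFITM2* and *IFITM3* lie side by side on chromosome 11, and *IFITM2* and *IFITM3* are near copies, so the split of reads between them is uncertain.

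The IFIT proteins bind viral RNA that lacks the host's cap marks. *IFIT3* was at 15.3, 14.4 and 14.8 CPM in MDA-MB-231, 58.3, 35.7 and 27.9 in HCC1954, 1.34, 1.997 and 2.09 in OVCAR8 and 7.07, 4.12 and 4.36 in SKOV3. *IFIT5* was at 25.3, 28.2 and 32.9 CPM in MDA-MB-231, 16.8, 14.9 and 13.4 in HCC1954, 16.1, 13.5 and 17.6 in OVCAR8 and 19.7, 19.2 and 18.7 in SKOV3. *IFIT5* was the evenest of the family across lines and highest in MDA-MB-231, and *IFIT3* was highest in HCC1954. *IFIT1* was at 8.78, 9.07 and 12.4 CPM in MDA-MB-231, 27.5, 12.4 and 7.34 in HCC1954, 2.82, 3.39 and 3.98 in OVCAR8 and 6.22, 5.80 and 4.38 in SKOV3. *IFIT2* was at 17.2, 12.5 and 11.98 CPM in MDA-MB-231, 27.4, 25.0 and 15.2 in HCC1954, 0.603, 1.45 and 1.57 in OVCAR8 and 2.68, 2.38 and 1.97 in SKOV3. In HCC1954 all 4 were lower at each step from EV to *SIVA-D160N*, in OVCAR8 all 4 were higher in *SIVA-D160N* than in EV, and none of the 4 passed an unadjusted p of 0.05 over the lines (median log2 fold change -0.33).

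Among the GTPases, *MX1* and *MX2* trap viral nucleocapsids, and *GBP1* and *GBP2*, which interferon gamma drives most, coat vacuoles and bacteria. *MX2* was at 0, 0.0505 and 0.121 CPM in MDA-MB-231, 0.912, 0.488 and 0.171 in HCC1954, 96.1, 90.8 and 92.7 in OVCAR8 and 0.106, 0 and 0.0493 in SKOV3, so that OVCAR8 held nearly all of it, and in that line both transfectants were within 0.08 of EV on the log2 scale. *MX1* lies next to *MX2* on chromosome 21 and stayed between 0.177 and 3.23 CPM in all libraries. *GBP1* was at 2.90, 5.69 and 6.12 CPM in MDA-MB-231, 80.9, 116 and 96.3 in HCC1954, 7.24, 7.67 and 5.47 in OVCAR8 and 4.29, 2.13 and 2.44 in SKOV3. It was higher in *SIVA-WT* than in EV in both breast lines and lower in SKOV3 transfectants than in SKOV3 EV. *GBP2* was at 10.6, 12.1 and 8.77 CPM in MDA-MB-231, 36.2, 53.5 and 24.5 in HCC1954, 1.59, 2.15 and 1.28 in OVCAR8 and 1.62, 0.874 and 0.394 in SKOV3, lowest in *SIVA-D160N* in each line, with -0.81 ± 0.24 (SE), FDR = 0.719 against *SIVA-WT* and -0.67 ± 0.24 (SE), FDR = 0.270 against EV, the latter -0.73 ± 0.31 (SE), FDR = 0.498 without HCC1954.

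OAS enzymes make 2′-5′ oligoadenylates on double-stranded RNA, which switch on RNase L. *OAS1* was at 0.0442, 0.0253 and 0 CPM in MDA-MB-231, 34.0, 21.9 and 11.5 in HCC1954, 0, 0 and 0 in OVCAR8 and 3.71, 0.605 and 0.493 in SKOV3. OVCAR8 gave 0 *OAS1* counts and MDA-MB-231 at most 2, so the fitted log2 fold change, -2.20 ± 0.41 (SE), FDR = 0.136 for *SIVA-D160N* vs EV and -1.46 ± 0.40 (SE), FDR = 1.000 for *SIVA-WT* vs EV, rests on HCC1954 and SKOV3, and without HCC1954 the first was -2.87 ± 0.52 (SE), FDR = 0.297. *OAS2* was at 0.177, 0.278 and 0.194 CPM in MDA-MB-231, 72.2, 32.9 and 9.85 in HCC1954, 0.0274, 0.0526 and 0 in OVCAR8 and 2.99, 0.852 and 0.788 in SKOV3, with -2.19 ± 0.42 (SE), FDR = 0.130 and -1.06 ± 0.38 (SE), FDR = 1.000 for the same comparisons, and -1.36 ± 0.56 (SE), FDR = 0.479 for the first without HCC1954. Both genes were lower in *SIVA-WT* and lower again in *SIVA-D160N* in HCC1954 and in SKOV3. *OAS3*, which lies between *OAS1* and *OAS2* on chromosome 12 (112938474 to 112973251 on GRCh38.p14), was at 0.199, 0.708 and 0.680 CPM in MDA-MB-231, 159, 115 and 115 in HCC1954, 2.28, 2.65 and 2.04 in OVCAR8 and 100.1, 77.3 and 73.2 in SKOV3. Its log2 ratio of *SIVA-D160N* to EV was -0.46 in HCC1954 and -0.45 in SKOV3, where those of *OAS1* were -1.56 and -2.79. *OASL*, a relative without the enzyme activity, was at 4.31, 3.56 and 3.96 CPM in MDA-MB-231, 3.98, 1.46 and 0.856 in HCC1954, 0.713, 0.788 and 1.49 in OVCAR8 and 0.609, 0.336 and 0.0493 in SKOV3 and opposite in direction between OVCAR8 and the others. *ISG20*, an exonuclease on single-stranded RNA, was at 20.1, 9.73 and 5.42 CPM in MDA-MB-231, 2.90, 2.09 and 2.63 in HCC1954, 3.81, 3.57 and 3.45 in OVCAR8 and 0.344, 0.202 and 0.197 in SKOV3. MDA-MB-231 was its highest line, with a lower level at each step there, and the fitted log2 fold change was -0.76 ± 0.29 (SE), FDR = 0.279 for *SIVA-D160N* vs EV and -0.62 ± 0.28 (SE), FDR = 1.000 for *SIVA-WT* vs EV. *CMPK2* and *RSAD2* (viperin), genes on chromosome 2 that overlap at one end and whose enzymes make and act on pyrimidine nucleotides, were at 3.89, 2.60 and 1.46 and 2.06, 1.32 and 0.285 CPM in HCC1954, while MDA-MB-231 and OVCAR8 held 0 *CMPK2* counts and at most 1 *RSAD2* count.

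*SAMD9* and *SAMD9L*, paired genes on chromosome 7 that restrict poxviruses and slow translation, were higher in HCC1954 *SIVA-D160N* than in HCC1954 EV, where 36 of the 40 members were lower. *SAMD9* was at 22.9, 25.3 and 32.2 CPM in MDA-MB-231, 77.9, 78.6 and 214 in HCC1954, 10.3, 15.9 and 19.96 in OVCAR8 and 84.5, 61.2 and 48.6 in SKOV3. It was higher in *SIVA-D160N* than in EV in MDA-MB-231, HCC1954 and OVCAR8 and lower in SKOV3, and its fitted log2 fold change was 0.56 ± 0.29 (SE), FDR = 0.425. *SAMD9L* was at 3.56, 3.13 and 2.89 CPM in MDA-MB-231, 29.3, 29.5 and 38.0 in HCC1954, 1.07, 1.24 and 2.01 in OVCAR8 and 24.5, 13.5 and 10.98 in SKOV3, with -0.12 ± 0.26 (SE), FDR = 0.869. Neither passed an unadjusted p of 0.05, and both were lower in the 2 SKOV3 transfectants than in SKOV3 EV.

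The log2 ratios of *SIVA-D160N* to EV within a line that were largest in size were among the other interferon-induced genes, in HCC1954: -3.89 for *IFI6*, -3.28 for *IFI44L* and -2.97 for *XAF1*. *IFI6*, a mitochondrial and endoplasmic reticulum protein that limits flavivirus replication, was at 3.54, 3.97 and 3.18 CPM in MDA-MB-231, 153, 34.0 and 10.3 in HCC1954, 6.93, 6.78 and 6.59 in OVCAR8 and 14.8, 9.30 and 9.36 in SKOV3. HCC1954 was lower at each step, both SKOV3 transfectants were lower than SKOV3 EV and close to each other, and MDA-MB-231 and OVCAR8 stayed within 0.16 of EV on the log2 scale; the fit over lines gave -1.25 ± 0.53 (SE), FDR = 0.325, and -0.31 ± 0.19 (SE), FDR = 0.626 without HCC1954. *IFI27*, a relative of *IFI6*, was at 0.531, 0.809 and 0.826 CPM in MDA-MB-231, 299, 145 and 77.5 in HCC1954, 2.63, 1.13 and 1.10 in OVCAR8 and 3.42, 3.43 and 2.41 in SKOV3, with -1.09 ± 0.31 (SE), FDR = 0.198, and -0.49 ± 0.35 (SE), FDR = 0.681 without HCC1954. It was lower at each step in HCC1954 and less abundant in both OVCAR8 transfectants than in OVCAR8 EV. *IFI44L* was at 0.111, 0.0505 and 0.0972 CPM in MDA-MB-231, 41.6, 12.8 and 4.25 in HCC1954, 0.192, 0.315 and 0.288 in OVCAR8 and 3.36, 0.739 and 0.616 in SKOV3. It was lower at each step in HCC1954 and SKOV3, with -2.26 ± 0.51 (SE), FDR = 0.148 for *SIVA-D160N* vs EV and -1.47 ± 0.46 (SE), FDR = 1.000 for *SIVA-WT* vs EV, the former -1.34 ± 0.59 (SE), FDR = 0.504 without HCC1954. *IFI44*, its neighbour on chromosome 1, was at 4.49, 3.82 and 3.72 CPM in MDA-MB-231, 56.6, 28.0 and 14.96 in HCC1954, 9.76, 15.9 and 17.7 in OVCAR8 and 17.6, 11.1 and 8.84 in SKOV3, lower at each step in the same 2 lines and higher in both OVCAR8 transfectants than in OVCAR8 EV. *XAF1*, which favours cell death by binding XIAP, was at 0.177, 0.253 and 0.0972 CPM in MDA-MB-231, 18.9, 11.7 and 2.37 in HCC1954, 0, 0 and 0 in OVCAR8 and 0.609, 0.246 and 0.172 in SKOV3, with -2.43 ± 0.43 (SE), FDR = 0.133 against EV and -1.82 ± 0.44 (SE), FDR = 0.719 against *SIVA-WT*. OVCAR8 gave 0 *XAF1* counts, and without HCC1954 the gene did not pass the filter for testing. *EPSTI1* (-1.43 ± 0.51 (SE), FDR = 0.299) was below 2 CPM in all libraries and at 0 in MDA-MB-231 and OVCAR8. *IFI35*, at between 8.02 and 22.3 CPM, had -0.51 ± 0.20 (SE), FDR = 0.292. In HCC1954 all 7 genes of the group were at least 2-fold lower in *SIVA-D160N* than in the library labelled HCC1954 EV (5.51% of all genes), and 6 of 7 were lower at an unadjusted p under 0.05 over the lines (7.68% of all genes). Without HCC1954, *IFI44L* was the only one of the 6 still tested that was lower at that p.

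*ISG15* is a ubiquitin-like tag, which *HERC5* attaches and *USP18* removes, and *HERC6* is a relative of *HERC5*. *ISG15* was at 12.3, 13.7 and 15.2 CPM in MDA-MB-231, 46.8, 14.4 and 11.5 in HCC1954, 12.4, 14.2 and 15.6 in OVCAR8 and 9.80, 12.3 and 12.8 in SKOV3. It was lower in both HCC1954 transfectants and higher in *SIVA-D160N* than in EV of the 3 other lines, and the fit gave -0.31 ± 0.36 (SE), FDR = 0.740. Without HCC1954 it was the 1 member higher at an unadjusted p under 0.05 in that comparison. *HERC5* was at 8.47, 10.8 and 9.18 CPM in MDA-MB-231, 9.05, 7.85 and 5.85 in HCC1954, 13.7, 11.7 and 15.2 in OVCAR8 and 50.6, 48.8 and 52.2 in SKOV3. SKOV3 was its highest line, and every transfectant was within 0.62 of its EV on the log2 scale. *HERC6* was at 6.57, 6.62 and 6.66 CPM in MDA-MB-231, 48.0, 27.8 and 27.2 in HCC1954, 4.50, 5.52 and 6.36 in OVCAR8 and 21.9, 18.8 and 18.7 in SKOV3, and *USP18*, which also dampens *IFNAR2* signaling, was at 0.133, 0.455 and 0.534 CPM in MDA-MB-231, 15.2, 11.5 and 8.02 in HCC1954, 2.91, 3.57 and 3.03 in OVCAR8 and 2.28, 1.23 and 1.65 in SKOV3. None of the 4 passed an unadjusted p of 0.05.

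The RNA sensors *DDX58* (RIG-I) and *IFIH1* (MDA5) signal through *MAVS*, and *DHX58* (LGP2) tunes them. *DDX58* was at 22.3, 30.9 and 26.5 CPM in MDA-MB-231, 24.9, 21.2 and 17.4 in HCC1954, 11.8, 15.01 and 16.1 in OVCAR8 and 6.41, 5.94 and 5.12 in SKOV3. *IFIH1* was at 3.16, 2.78 and 1.68 CPM in MDA-MB-231, 42.1, 38.6 and 35.6 in HCC1954, 1.23, 2.34 and 2.41 in OVCAR8 and 5.22, 2.98 and 2.46 in SKOV3. HCC1954 held the most *IFIH1*, and both genes were higher in OVCAR8 transfectants than in OVCAR8 EV. *DHX58* was lower in *SIVA-D160N* in HCC1954 and SKOV3 (6.29, 4.90 and 2.17 and 2.46, 1.82 and 1.034 CPM) and at most 0.292 CPM in MDA-MB-231 and OVCAR8, with -0.94 ± 0.35 (SE), FDR = 0.274.

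The signaling factors *STAT2*, *IRF1*, *IRF7* and *IRF9* carry or amplify the signal, and *PARP9* and *PARP14* act with them. *STAT2* was at 58.8, 55.6 and 52.1 CPM in MDA-MB-231, 84.3, 99.7 and 62.0 in HCC1954, 41.8, 46.8 and 39.8 in OVCAR8 and 58.8, 64.0 and 50.9 in SKOV3. It was lowest in *SIVA-D160N* in each line, with -0.34 ± 0.10 (SE), FDR = 0.719 against *SIVA-WT* and -0.22 ± 0.10 (SE), FDR = 0.342 against EV, the latter -0.15 ± 0.10 (SE), FDR = 0.659 without HCC1954. *PARP14*, an ADP-ribosyltransferase on chromosome 3, was at 16.7, 15.6 and 12.8 CPM in MDA-MB-231, 104, 96.02 and 80.1 in HCC1954, 14.1, 18.9 and 14.8 in OVCAR8 and 54.1, 41.0 and 41.0 in SKOV3, with -0.28 ± 0.12 (SE), FDR = 0.321. *PARP9*, from the same region, had -0.07 ± 0.16 (SE), FDR = 0.881. *IRF7*, which amplifies type I interferon transcription, was at 9.53, 6.80 and 5.73 CPM in MDA-MB-231, 17.3, 9.27 and 9.05 in HCC1954, 5.54, 5.57 and 5.36 in OVCAR8 and 6.33, 8.60 and 8.74 in SKOV3. Both transfectants were lower than EV in the breast lines and higher in SKOV3, with -0.35 ± 0.22 (SE), FDR = 0.501. *IRF1*, which interferon gamma induces, was at 12.9, 9.25 and 9.91 CPM in MDA-MB-231, 94.0, 95.4 and 101 in HCC1954, 9.79, 11.8 and 9.47 in OVCAR8 and 17.3, 15.9 and 14.6 in SKOV3 and *IRF9* at 0.929, 0.885 and 0.875 CPM in MDA-MB-231, 5.61, 6.25 and 2.97 in HCC1954, 1.70, 2.44 and 1.65 in OVCAR8 and 0.583, 0.896 and 0.763 in SKOV3, with -0.14 ± 0.12 (SE), FDR = 0.610 and -0.23 ± 0.23 (SE), FDR = 0.698. The chemokines *CXCL10* and *CXCL11*, which draw T cells through CXCR3, were seen in HCC1954 at 0.600, 0.557 and 0 and 1.27, 0.766 and 0.428 CPM and held at most 1 count in any other library.

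Within a line there is 1 library per condition and no test, so members were counted at 2-fold or more on CPM with a prior count of 2. In HCC1954, 18 of the 40 members were at least 2-fold lower in *SIVA-D160N* than in the library labelled HCC1954 EV, against 5.51% of all genes, and 1 (*SAMD9*) at least 2-fold higher, against 4.73%. *SIVA-WT* gave 8 lower (1.02% of all genes) and 0 higher (3.47%). *SIVA-D160N* vs *SIVA-WT*, which leaves out that EV library, gave 9 lower (6.41%) and 1 higher (2.36%). In SKOV3, 11 were lower in *SIVA-D160N* (6.05%) and 0 higher (2.7%), and *SIVA-WT* gave 5 lower (3.85%) and 0 higher (1.94%). MDA-MB-231 had 2 lower in *SIVA-D160N* (4.3%) and 4 higher (2.52%), and 1 lower (2.1%) and 3 higher (2.48%) in *SIVA-WT*. OVCAR8 had 1 lower (1.55%) and 2 higher (1.96%) in *SIVA-D160N*, and 1 lower (1.19%) and 1 higher (1.97%) in *SIVA-WT*. Among members with at least 50 counts in one of the 2 libraries, 16 of 38 were lower in HCC1954 *SIVA-D160N* (4.49% of all such genes), 8 of 33 in SKOV3 (3.53%), 1 of 25 in MDA-MB-231 (3.23%) and 1 of 32 in OVCAR8 (0.198%). The median log2 ratio of *SIVA-D160N* to EV over the 40 was -0.93 in HCC1954, -0.50 in SKOV3, -0.10 in MDA-MB-231 and 0.00 in OVCAR8, beside medians over all genes of 0.00, 0.00, 0.00 and -0.02. That of *SIVA-WT* to EV was -0.46 in HCC1954 and -0.30 in SKOV3, and above 0 in MDA-MB-231 (0.01) and OVCAR8 (0.18). The stepwise order, EV above *SIVA-WT* above *SIVA-D160N*, held for 30 members in HCC1954 (20.2% of all genes), 26 in SKOV3 (24.8%), 11 in MDA-MB-231 (27.9%) and 8 in OVCAR8 (22%). Of the 3 other lines SKOV3 had the most members at least 2-fold lower, and its *OAS1*, *IFI44L*, *OAS2* and *GBP2* had log2 ratios of -2.79, -2.36, -1.86 and -1.91, all at under 4 CPM.

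**Figure D3:**
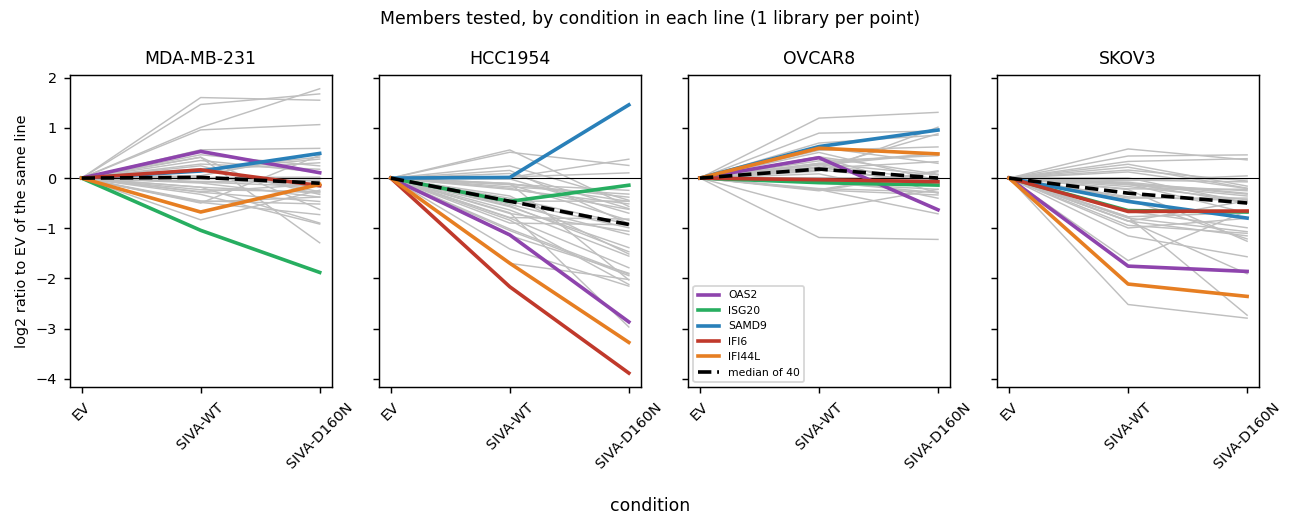
Log2 ratio to the EV library of the same line (y axis) by condition (x axis) for the 40 members tested, 1 panel per line; each line is 1 gene, 5 genes are colored and the dashed line is the median of the 40. The median ends at -0.93 in HCC1954, -0.50 in SKOV3, -0.10 in MDA-MB-231 and 0.00 in OVCAR8, and SAMD9 leaves the others in HCC1954.

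Whether the response to *SIVA-D160N* differed between the tissues was asked of an interaction term added to the model. None of the 40 members passed an FDR of 0.05 by edgeR, against 0.00581% of all genes, and 0 and 0 by DESeq2 and limma-voom, nor did any by edgeR without HCC1954. At an unadjusted p under 0.05 there were 4, or 10% of those tested, against 5.06% of all genes. The log2 fold changes of *IRF7* and *BST2* were lower in the breast lines (ovarian minus breast, 1.05 ± 0.30 (SE), FDR = 0.928 and 0.73 ± 0.21 (SE), FDR = 0.945). Those of *GBP1* and *OAS1* were lower in the ovarian lines (-1.23 ± 0.38 (SE), FDR = 0.964 and -1.28 ± 0.54 (SE), FDR = 0.976). *OAS1* had 0 counts in OVCAR8 and at most 2 in MDA-MB-231, so its value sets SKOV3 against HCC1954. Without HCC1954, MDA-MB-231 is the only breast line left. The differences were then 0.92 ± 0.36 (SE) for *IRF7*, 0.22 ± 0.46 (SE) for *BST2*, -1.72 ± 0.51 (SE) for *GBP1* and, of the opposite sign, 1.05 ± 1.49 (SE) for *OAS1*. The last sets SKOV3 against the at most 2 *OAS1* counts of MDA-MB-231, so its sign says nothing on the tissues. The lines of one tissue differed from each other, HCC1954 from MDA-MB-231 and SKOV3 from OVCAR8, by more in their medians than the tissues did, and a difference between single lines could not be tested.

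Members with and without an exact match to GAAANNGAAA were set side by side in the same libraries. Members with a near match, such as *OAS1*, stand among those without. In HCC1954, the log2 ratio of *SIVA-D160N* to EV had a median of -0.99 over 21 tested members with GAAANNGAAA and of -0.86 over 10 without it, and both groups held members lower by over 2-fold. In SKOV3 the medians were -0.66 and -0.24, in MDA-MB-231 -0.04 and -0.23, and in OVCAR8 0.08 and 0.00. Over the 443 tested genes of any kind with the repeat, the medians were 0.00 in HCC1954 and -0.04 in SKOV3, beside 0.00 and 0.03 over the 10442 genes without it. In HCC1954, *IFI6*, *ISG15* and *IFI44L*, printed above with their repeats, were lower in *SIVA-D160N*. *SAMD9*, which also has the repeat, was higher, and *OAS1*, with only a near match, was lower.

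**Figure D4:**
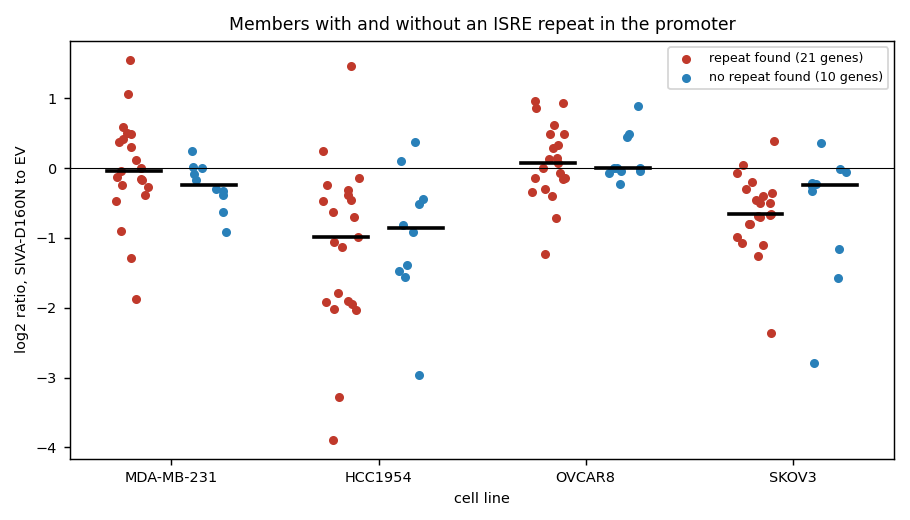
Log2 ratio of SIVA-D160N to EV (y axis) in each cell line (x axis) for tested members with a promoter in RefSeq; red points have GAAANNGAAA in the promoter (21 genes), blue points do not (10 genes), and black bars are medians. In HCC1954 both groups lie mostly below 0, with SAMD9 as the high red point.

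Of 54 further genes of the interferon pathway that are not among the 43, 44 could be tested and 0 were called in any of the 3 comparisons by edgeR or DESeq2, while limma-voom, and edgeR without the filter on low counts, called 1 (*TRIM22*) in *SIVA-D160N* vs EV. Of 9 interferon genes, *IFNA1*, *IFNA2*, *IFNB1*, *IFNK*, *IFNL1*, *IFNL2*, *IFNL3* and *IFNG* had at most 1 count in any library, and the sensor *ZBP1* had at most 3. Only *IFNE*, an interferon of epithelia, was tested, at 0, 0 and 0 CPM in MDA-MB-231, 1.42, 1.90 and 1.17 in HCC1954, 0.466, 0.420 and 0.576 in OVCAR8 and 4.77, 3.54 and 2.19 in SKOV3. The receptor genes *IFNAR1* and *IFNAR2* were present in all 4 lines, while SKOV3 had 0 counts of *IFNLR1*. At an unadjusted p under 0.05 in *SIVA-D160N* vs EV, 7 of the 44 were lower and 1, the antiviral zinc finger *ZC3HAV1*, higher (0.28, FDR = 0.286), against the 7.68% and 6.52% of all genes above. The 7 were 2 of 6 receptor genes, both ISG15-conjugating enzymes, 1 of 10 sensing genes and 2 of 15 further interferon-stimulated genes. In *SIVA-WT* vs EV 0 passed that p in either direction, and in *SIVA-D160N* vs *SIVA-WT* 4 were lower and 0 higher. The median over the 44 in *SIVA-D160N* vs EV was -0.01, the same to 2 decimals as over all genes. *UBA7*, the enzyme that activates *ISG15*, was at 0.995, 0.632 and 0.364 CPM in MDA-MB-231, 24.6, 26.0 and 8.28 in HCC1954, 0.713, 0.683 and 0.340 in OVCAR8 and 1.85, 1.77 and 0.936 in SKOV3. It was lower in *SIVA-D160N* than in EV in each of the 4 lines, with -1.32, FDR = 0.128, and -1.16 ± 0.27 (SE), FDR = 0.353 without HCC1954, while its partner *UBE2L6*, which carries *ISG15* onward, had -0.46, FDR = 0.246. *TRIM22*, an interferon-induced ubiquitin ligase, was lower in *SIVA-D160N* than in EV in HCC1954 and SKOV3, as *OAS2* was, at 28.5, 23.0 and 5.05 and 2.86, 1.52 and 0.960 CPM, with -1.74, FDR = 0.148. *LGALS3BP*, a secreted galectin partner, was at 28.9, 27.9 and 15.5 CPM in MDA-MB-231, 464, 359.5 and 269 in HCC1954, 171, 168 and 139.7 in OVCAR8 and 100.3, 91.4 and 79.3 in SKOV3, with -0.57, FDR = 0.136. *STING1*, the adaptor of the DNA sensor cGAS, had -0.46, FDR = 0.198, and the receptor subunits *IL10RB* and *IFNGR2* had -0.34, FDR = 0.260 and -0.31, FDR = 0.237.

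Other genes differed between conditions in the lines in which most members were lower. *ERBB2* was at 9223, 7697 and 5736 CPM in HCC1954 and 12170.4, 8860.0 and 5964 in SKOV3, the fitted log2 fold change in *SIVA-D160N* vs EV was -0.44, FDR = 0.265, and its neighbours *GRB7* and *STARD3* had -0.68, FDR = 0.237 and -0.34, FDR = 0.237. In HCC1954, the mesenchymal markers *VIM* and *ZEB1* were at 95.6, 161 and 290.2 and 0.168, 0.813 and 1.63 CPM, and *CDH2* was below 1 CPM, while *FN1*, at 146, 344 and 222, was not stepwise. Of the epithelial markers in HCC1954, *CDH1* was at 807, 816 and 695, *EPCAM* at 248, 206 and 234, *KRT19* at 30.9, 21.6 and 13.5, *KRT8* at 2866, 2746 and 3800.3 and *KRT18* at 1925, 1966 and 2784 CPM, so *KRT8* and *KRT18* were highest and *CDH1* and *KRT19* lowest in *SIVA-D160N*. In SKOV3, *VIM* was at 3716, 3804 and 3522 CPM and not stepwise, and *ZEB1*, at 98.3, 78.9 and 73.8, was lower at each step. *CDH2*, at 111, 126 and 148, and *FN1*, at 187, 214 and 241, were higher at each step there. *ERBB2* was lower in both lines, and, of these 2 lines, *VIM* and *ZEB1* were higher in HCC1954 only, at each step from EV to *SIVA-D160N*. That is the order in which 30 members were lower in HCC1954 and 26 in SKOV3. OVCAR8, where the median log2 ratio of the members was 0.00, also had *ERBB2* lower at each step, at 78.1, 74.6 and 69.5 CPM. *ZEB1* was higher at each step there too, at 19.9, 28.7 and 33.6 CPM, while *VIM* was not stepwise. The part of these genes in the result was not tested.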

How the data were processed

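RNA was sequenced from 12 cell line libraries, 1 for each of 4 lines in 3 conditions. Reads were aligned by the authors to GRCh38 with STAR 2.5.3a after FastQC, per the submitters' processing notes, and counted per gene with no normalization; the annotation release is not given in the sources used here. The deposited count table was used for all values and tests. A second deposited table of CPM, a signal scaled by the authors with edgeR and holding 34525 genes, served only to choose genes in 1 alternative. Reads of near-identical copies such as *IFITM2* and *IFITM3* may have been split between them, and whether counting used strand is not given in the sources used here.

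Counts were analysed in R 4.3.3 with edgeR 4.0.16: filterByExpr by condition (17211 genes kept), TMM, and the quasi-likelihood test on a model with line and condition over all 12 libraries. A gene was called at a Benjamini-Hochberg FDR below 0.05 with a log2 fold change of 1.5 or more in size, and for the interaction of condition with tissue at an FDR under 0.05. SE were derived from the fitted fold change and its F statistic. Within a line, log2 ratios of CPM with a prior count of 2 were given without a test. The line was the block: deviations of libraries of one line from their condition means correlated at 0.929 to 0.968, and those of different lines at -0.447 to -0.191. Each library is its line's only one per condition and nothing states separate cultures, so p-values measure how far the difference between conditions varies from line to line. DESeq2 1.42.0 and voom in limma 3.58.1 were alternatives, with RLE scaling, other filters, other prior counts and left-out lines and libraries, and the procedure was tested on simulated data. Of the columns of the tables, 0 were left without a library.

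Values of some genes are not reported here. The 43 members, the 54 pathway genes and the markers were chosen with earlier results of these data known. Values in all libraries are given for the 2 members of each role group with the highest mean CPM, the 4 with the smallest p in each condition comparison, and the 2 with the largest rise and fall of each transfectant against EV in each line among members with at least 50 counts. Other members named with values were added after their values were seen. The counts of libraries above all others, of stepwise order, of members lower in all 4 lines and of members with at least 50 counts were also chosen after seeing the data.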

Additional observations from a re-analysis of the deposited data

Results flagged for a closer look

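In each line and comparison, the log2 ratio of every member was set against those of the 3 other lines, and the line at one end was singled out where its gap to the nearest other line was above Dixon's 95% critical value as a share of the whole range. Chance singles out about 1 in 20 sets of independent values. Here 14 of 120 were found, 10 of them for HCC1954, but the 3 comparisons share libraries, and the 5 for *CMPK2* and *EPSTI1* include 2 lines with 0 counts, whose ratios are 0 by construction, so chance gives no set number. The 10 rest on HCC1954, whose EV library held no *SIVA1* counts. Those of *IFIT3*, *CMPK2* and *EPSTI1* in SIVA-D160N vs SIVA-WT do not use that EV library. None of these differences has a replicate within its line.

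For SIVA-D160N vs EV, the log2 ratio of *IFI6* was -3.89 in HCC1954 and between -0.66 and -0.07 in the 3 other lines. *ISG15* was at -2.02 in HCC1954 and between 0.31 and 0.39 elsewhere, and it stood apart in SIVA-WT vs EV too, at -1.70 beside 0.16 to 0.33. *IFITM3* was at -0.99 in HCC1954 and between -0.29 and -0.17 elsewhere. *HERC5* was at -0.62 in HCC1954 and between 0.04 and 0.15 elsewhere. *OAS3* was at 1.55 in MDA-MB-231, where it was below 1 CPM, and between -0.46 and -0.15 elsewhere. *PARP14* was at 0.077 in OVCAR8 and between -0.40 and -0.38 elsewhere.

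Of genes with few or no counts in other lines, *CMPK2* stood apart in HCC1954 in all 3 comparisons, at -0.57 for SIVA-WT vs EV, -1.39 for SIVA-D160N vs EV and -0.82 for SIVA-D160N vs SIVA-WT. *EPSTI1* was at -0.94 in SKOV3 for SIVA-WT vs EV and at -1.92 in HCC1954 for SIVA-D160N vs SIVA-WT. Also in SIVA-D160N vs SIVA-WT, *IFIT3* was at -0.35 in HCC1954, beside 0.04 to 0.08 elsewhere, and *HERC6* at 0.20 in OVCAR8, beside -0.03 to 0.01.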

How the results depend on the processing

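Of the 40 members, 0 were called in SIVA-D160N vs EV with the line as block, and the count became 5 once genes down to 1 count were let in, 5 over the genes listed in the deposited CPM table, 2 by DESeq2 and 5 by limma-voom. The FDR of *OAS2*, for example, was 0.130 after the filter and 7.37e-06 without it, at the same fold change, and the cause was not tested. In SIVA-D160N vs SIVA-WT, 1 member (*XAF1*) was called with all genes and 1 with the genes of the CPM table, and 0 otherwise. The count at an unadjusted p under 0.05 in SIVA-WT vs EV, 4, became 8 with all genes, 8 with the genes of the CPM table and 2 by DESeq2. The shares of all genes lower were 1.07%, 1.05%, 0.991% and 0.889%. In SIVA-D160N vs SIVA-WT the count was 8 and became 16, 16 and, by limma-voom, 14, beside 4.3%, 3.63%, 3.55% and 5.62%. Each 16 holds 1 member that was higher. Fitting only the 2 conditions compared gave 9 of 37 tested rather than 16 of 40 for SIVA-D160N against EV. The share of all genes lower moved with it, from 7.68% to 4.35%. For SIVA-D160N against SIVA-WT it gave 14 of 38 rather than 8 of 40, and that share went from 4.3% to 7.22%. Without the replicate block, that is, without the pairing of libraries by line, the counts were 0 for SIVA-WT vs EV, 1 for SIVA-D160N vs EV and 0 for SIVA-D160N vs SIVA-WT, since the spread between lines then enters the error. The shares of all genes lower were then 0.00581%, 0.0755% and 0.0174%.

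Leaving out 1 line or 1 library gave other counts at an unadjusted p under 0.05, both directions together. The share of all genes lower, given beside them in percent, moved too. For SIVA-WT vs EV the counts ran from 0 (without SIVA-WT of SKOV3, 0.681%) to 10 (without EV of OVCAR8, 1.96%). For SIVA-D160N vs EV they ran from 8 to 23 (without EV of OVCAR8, 8.9%). The 8 was found without HCC1954 (5.73%, 1 of the 8 higher) and without its SIVA-D160N library (5.4%). For SIVA-D160N vs SIVA-WT they ran from 3 (without HCC1954, 1.52%, or its SIVA-D160N library, 2.18%) to 12 (as without EV of SKOV3, 5.23%). In each case 0 members were called. Without the library labelled HCC1954 EV the counts were 2, 9 and 11 (1.57%, 6.41% and 4.32%), and without SIVA-WT of HCC1954 the last was 5 (1.59%). Counts called between lines stayed within 1.5 times of those reported in all alternatives run, from 25 to 28 for HCC1954, 16 to 18 for MDA-MB-231, 15 to 20 for OVCAR8 and 14 to 17 for SKOV3 when 1 library was left out. The interaction was also fitted without HCC1954, with 0 members called, an alternative added after seeing the data. In MDA-MB-231, 6 members were at least 2-fold apart within the line and 2 with at least 50 counts, a limit added after seeing the data. A set of alternatives covered the single genes with the smallest p in each condition comparison, the medians and the promoter share. Of these, 329 kept their direction and side of the threshold or stayed within the spread. A further 14 passed the threshold where the main fit did not, and 0 changed direction. The spread was the SD of the medians of the 4 lines, or was taken from the interval of the promoter share. It was wide: a median of -0.25 in SIVA-WT vs EV that became -0.01 without the library labelled HCC1954 EV was scored as unchanged. No single gene was called in the main fit, so the loss of a call could not occur. The tally therefore says little on stability. *ISG15* in SIVA-D160N vs EV and *OAS1* in the interaction were outside this set, and both changed sign without HCC1954. The new sign of *OAS1* rests on at most 2 counts in MDA-MB-231. For the counts of members, 200 alternatives were scored as unchanged and 31 as moved. With 1 library per line and condition, a response of a single line cannot be tested, and members at 0 to 3 counts in a line say nothing on its response.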
